A study of Mus musculus with 6 samples.

Results

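The interferon-inducible GTPases described here are 9 mouse genes, the guanylate-binding proteins Gbp2, Gbp2b (older name Gbp1), Gbp3 and Gbp7 and the immunity-related GTPases Igtp, Irgm1, Irgm2, Iigp1 and Ifi47. They are 9 of the 18193 genes with a probe set of their own on the array, and 12 of its 45037 probe sets carry their symbols. The 9 genes were chosen by their symbols and from measured values of the comparison described below, so their differences, and the counts of them past the threshold used for all genes, are given as a description with no p-value. All 9 genes passed the filter on dim probe sets, as did 11 of the 12 probe sets. The filter used the mean over all 6 arrays.

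The samples were R1 cells, a mouse embryonic stem (ES) cell line, transduced with lentivirus. In 1 arm (3 arrays) the virus carried KIAA1718 shRNA1, a hairpin against KIAA1718 (now Kdm7a), a histone demethylase. In the control arm (3 arrays) it carried Luc shRNA, a hairpin against luciferase. Both arms were sorted for GFP, and total RNA was hybridised to Affymetrix Mouse Genome 430 2.0 arrays. Only 1 hairpin against KIAA1718 was used, so effects of the hairpin and of its target cannot be told apart. The labels do not say that the arrays of an arm came from separate cultures, so the p-values below cover the spread of these arrays, which may be technical. Kdm7a itself had signals of 40.9, 23.8 and 34.9 in KIAA1718 shRNA1 cells and 33.35, 31.23 and 44.95 in luciferase shRNA cells on its brightest probe set. Its log2 difference was -0.20 ± 0.15 (SE; adjusted p = 0.533), and its other 2 tested probe sets did not pass either, so the transcript gives no check of the labels.

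Both families are large GTPases that cells make in response to interferon, above all interferon gamma. Guanylate-binding proteins assemble on bacteria and on the vacuoles that hold parasites, and some carry a lipid anchor at their end. Among the immunity-related GTPases of the mouse, Irgm1, Irgm2 and Igtp sit on the cell's own membranes and restrain the effector members, which include Iigp1 and Ifi47 and load onto parasite vacuoles. Pluripotent stem cells are known for a weak response to interferon. The promoters of such genes often hold an interferon-stimulated response element (ISRE), bound by IRF and STAT complexes, or a gamma-activated site (GAS), bound by STAT dimers.

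Promoter sequences are shown as a description. The choice of members did not use these letters, but it took interferon-inducible genes, whose promoters often hold an ISRE. Windows from 250 bases before to 50 bases after the start were taken from RefSeq (GRCm38.p6), and 8 of the 9 members were matched by symbol, all but Iigp1. The ISRE core was searched as GAAANNGAAA and the GAS core as TTCNNNGAA, on both strands. In the stretches below, read 5′ to 3′ on the gene's strand, capitals mark matches to either core. An ISRE core on the other strand reads as TTTCNNTTTC, and in Gbp3 and Irgm1 a pair of overlapping matches runs together.
Gbp2: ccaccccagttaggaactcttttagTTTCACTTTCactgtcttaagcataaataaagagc
Gbp2b: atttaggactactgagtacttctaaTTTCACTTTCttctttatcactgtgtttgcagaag
Gbp3: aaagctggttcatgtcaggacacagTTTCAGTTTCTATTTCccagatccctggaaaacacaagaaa
Gbp7: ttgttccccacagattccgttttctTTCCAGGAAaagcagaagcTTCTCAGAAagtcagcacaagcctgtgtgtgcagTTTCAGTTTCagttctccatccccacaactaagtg
Igtp: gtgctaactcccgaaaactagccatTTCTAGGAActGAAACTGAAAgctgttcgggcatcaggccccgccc
Irgm2: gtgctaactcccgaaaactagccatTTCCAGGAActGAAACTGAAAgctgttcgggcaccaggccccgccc
Irgm1: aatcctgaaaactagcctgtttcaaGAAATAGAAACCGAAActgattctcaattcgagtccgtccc
Tgtp1: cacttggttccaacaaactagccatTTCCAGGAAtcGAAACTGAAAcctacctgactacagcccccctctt

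The Gbp stretches lie on the plus strand at chr3:142620579-142620638 (Gbp2), chr3:142594685-142594744 (Gbp2b), chr3:142559974-142560039 (Gbp3) and chr3:142530205-142530317 (Gbp7). The Igtp stretch lies at chr11:58199486-58199556 and the Irgm2 stretch at chr11:58214877-58214947, both on the plus strand. The Irgm1 stretch at chr11:48871410-48871475 and that of Tgtp1, a relative whose GAS and ISRE cores are arranged as in Igtp and Irgm2, at chr11:48992289-48992359 are on the minus strand.

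An ISRE core was present in 7 of the 8 members matched (87.5%), all but Ifi47, against 3.99% of the 27025 genes with a promoter window. The core was also present in 5 of 10 relatives and in 16 of 35 other interferon-induced genes (45.7%). It lay between 59 and 50 bases before the start in Gbp2 and between 30 and 15 bases before it, as an overlapping pair, in Irgm1. A GAS core was present in 3 of 8 members, Gbp7, Igtp and Irgm2 (37.5%), against 4 of 10 relatives, 9 of 35 other interferon-induced genes (25.7%) and 9.55% of all genes, and each of these 3 also held an ISRE core. Among all genes, 146 held both cores in 1 window. In Igtp and Irgm2 the GAS core preceded the ISRE core with 2 bases between them, as it did in the relatives Tgtp1, Tgtp2 and Gm12185. The Igtp and Irgm2 windows shared an identical run of 61 bases, whereas the next longest run between any members was 13 bases (Gbp3 and Gbp7). A match describes letters in a window and says nothing on binding in these cells.

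**Figure D1:**
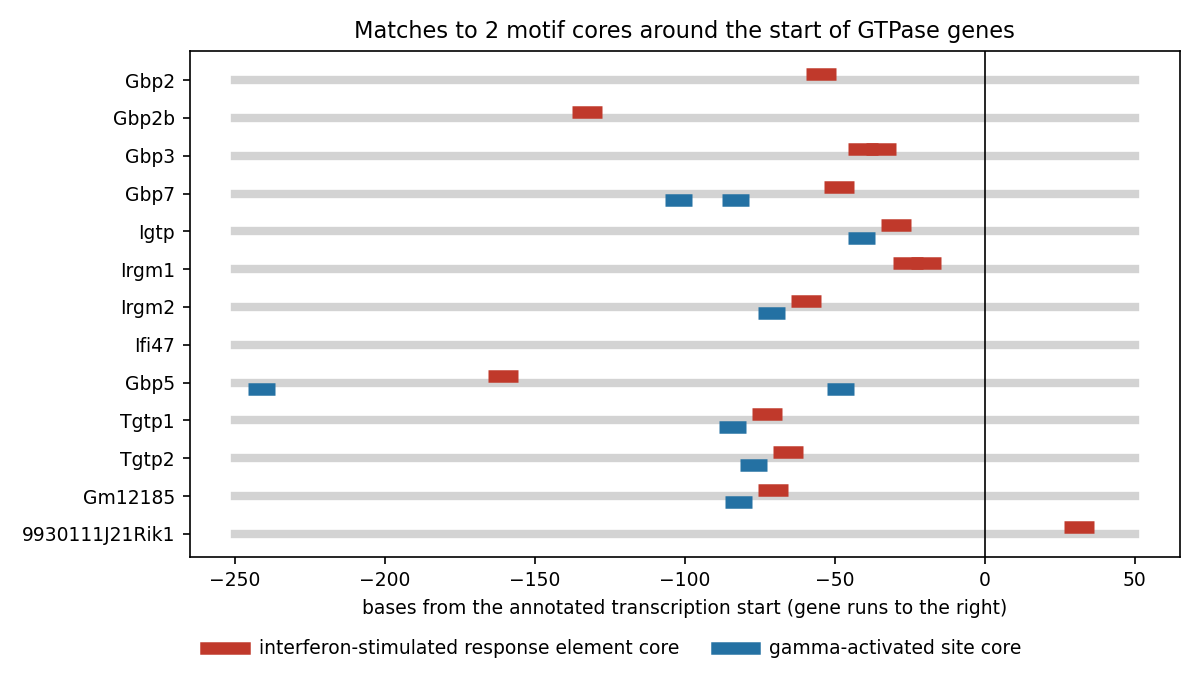
Positions of the ISRE and GAS core matches in the promoter windows of the 8 matched members and of the relatives that hold a match, in bases from the start (ISRE red, GAS blue). ISRE cores begin at most 137 bases before the start in the 7 members that hold one, and Ifi47 has neither core.

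The guanylate-binding proteins were all higher in KIAA1718 shRNA1 cells, and Gbp2 had the largest positive log2 difference of the 12734 genes tested. On its brightest probe set Gbp2 had deposited signals of 216.8, 300.9 and 325.8 in KIAA1718 shRNA1 cells (replicates 1 to 3), against 41.15, 32.69 and 54.47 in luciferase shRNA cells. The lowest KIAA1718 shRNA1 array was far above the highest luciferase array, with means of 281 ± 57 and 42.77 ± 10.98 (SD, n = 3 each). After quantile normalisation the ratio of the mean signals was 6.01, and the log2 difference was 2.22 ± 0.14 (SE), where log2 differences throughout are on log2(normalised signal + 16), a scale that understates the change of dim probe sets. The other Gbp2 probe set had 191, 276 and 274 in KIAA1718 shRNA1 cells, against 40.7, 42.8 and 52.6 in luciferase shRNA cells, a log2 difference of 1.97 ± 0.13 (SE). The brightest probe set's name carries the suffix x, which marks probes that can also match related transcripts, and the probe set without it gave the same direction.

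Gbp2b, the closest member to Gbp2 in its values, had signals of 230.8, 247.8 and 306.3 in KIAA1718 shRNA1 cells, against 51.57, 33.87 and 60.88 in luciferase shRNA cells. The groups did not overlap, and the log2 difference was 2.00 ± 0.13 (SE), the third largest positive one of all genes tested. Gbp3 had 63.8, 92.0 and 103.8 in KIAA1718 shRNA1 cells, against 16.8, 15.0 and 23.9 in luciferase shRNA cells. Its log2 difference was 1.46 ± 0.14 (SE), with the KIAA1718 shRNA1 arrays again above every luciferase array. Gbp7, which is known in mouse macrophages for its part in assembling the NADPH oxidase, had 34.6, 48.4 and 57.3 in KIAA1718 shRNA1 cells on its brighter probe set, against 10.79, 11.04 and 10.72 in luciferase shRNA cells. Its log2 difference was 1.11 ± 0.14 (SE). On its dimmer probe set Gbp7 had 9.66, 23.6 and 12.7 in KIAA1718 shRNA1 cells, against 9.26, 5.33 and 6.92 in luciferase shRNA cells. There the log2 difference was 0.34 ± 0.17 (SE), and the groups overlapped after normalisation.

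**Figure D2:**
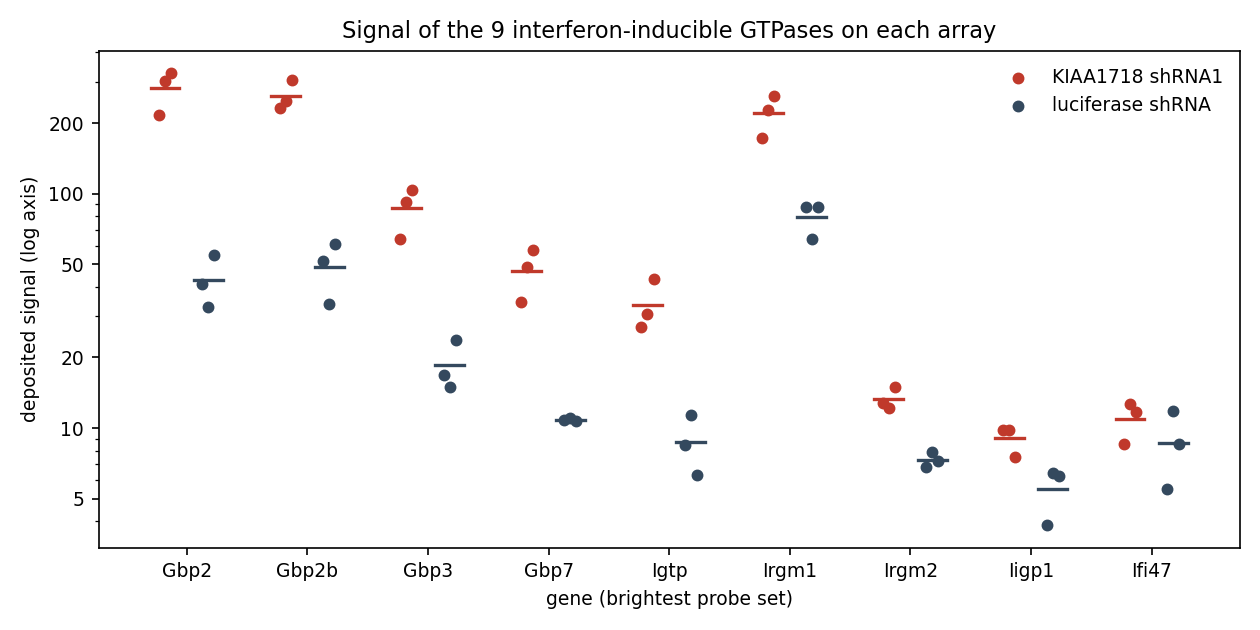
Signal of each member's brightest probe set on every array, KIAA1718 shRNA1 left of luciferase shRNA. The 3 KIAA1718 shRNA1 points of Gbp2, Gbp2b, Gbp3, Gbp7, Igtp and Irgm1 lie above all 3 luciferase points.

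Of the immunity-related GTPases, Irgm1 and Igtp had the larger differences. Irgm1, a regulatory member, had 172, 226 and 262 in KIAA1718 shRNA1 cells, against 87.8, 64.2 and 87.5 in luciferase shRNA cells. Its groups did not overlap, with means of 220 ± 45 and 79.8 ± 13.6 (SD, n = 3 each) and a log2 difference of 1.16 ± 0.14 (SE). Signals of different probe sets are not compared as transcript levels, since probes differ in brightness. Igtp, also regulatory, had 26.9, 30.8 and 43.3 in KIAA1718 shRNA1 cells, against 8.48, 11.4 and 6.31 in luciferase shRNA cells, a log2 difference of 0.90 ± 0.15 (SE).

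Irgm2, Iigp1 and Ifi47 had the lowest mean normalised signals of the brightest probe sets, close to the filter's limit of 6.65. Irgm2, the other regulatory member, had 12.8, 12.2 and 14.9 in KIAA1718 shRNA1 cells, against 6.83, 7.87 and 7.25 in luciferase shRNA cells. These groups did not overlap, but the log2 difference was 0.25 ± 0.13 (SE). The effector Iigp1 had 9.81, 9.86 and 7.49 in KIAA1718 shRNA1 cells, against 3.85, 6.40 and 6.24 in luciferase shRNA cells. Its log2 difference was 0.17 ± 0.13 (SE), and the groups overlapped once normalised. Its other probe set was below the filter and had a log2 difference of -0.12. The brighter Iigp1 probe set averaged 5.50 in luciferase shRNA cells, so it passed the filter through its KIAA1718 shRNA1 arrays. Ifi47, the other effector, had 8.55, 12.6 and 11.8 in KIAA1718 shRNA1 cells, against 5.48, 11.8 and 8.57 in luciferase shRNA cells. The groups overlapped, and the log2 difference was 0.06 ± 0.15 (SE). In RNA from whole cell populations, a change in the number of cells that express a gene and a change in RNA per cell cannot be told apart.

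Of the 9 members, 6 passed the 5% threshold (limma, Benjamini-Hochberg over all probe sets), all of them higher in KIAA1718 shRNA1 cells. Over all genes tested, 4.84% passed in either direction and 2.66% passed as higher. The groups did not overlap, KIAA1718 shRNA1 higher, for 7 members on normalised values, against 14.5% of all genes tested. Because the members were chosen on these values, nothing is read from these shares. The median log2 difference of the 9 members was 1.11, and that of all genes tested was -0.00031. The 4 guanylate-binding proteins had a median of 1.73 (range 1.11 to 2.22) and the 5 immunity-related GTPases a median of 0.25 (range 0.06 to 1.16). With a pseudocount of 1 in place of 16 the median of the 9 was 1.68, and with 64 it was 0.51. The order of the immunity-related GTPases also depended on it. With a pseudocount of 1 Igtp had 1.68, Irgm1 1.30 and Irgm2 0.61, and with 64 they had 0.38, 0.88 and 0.09.

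**Figure D3:**
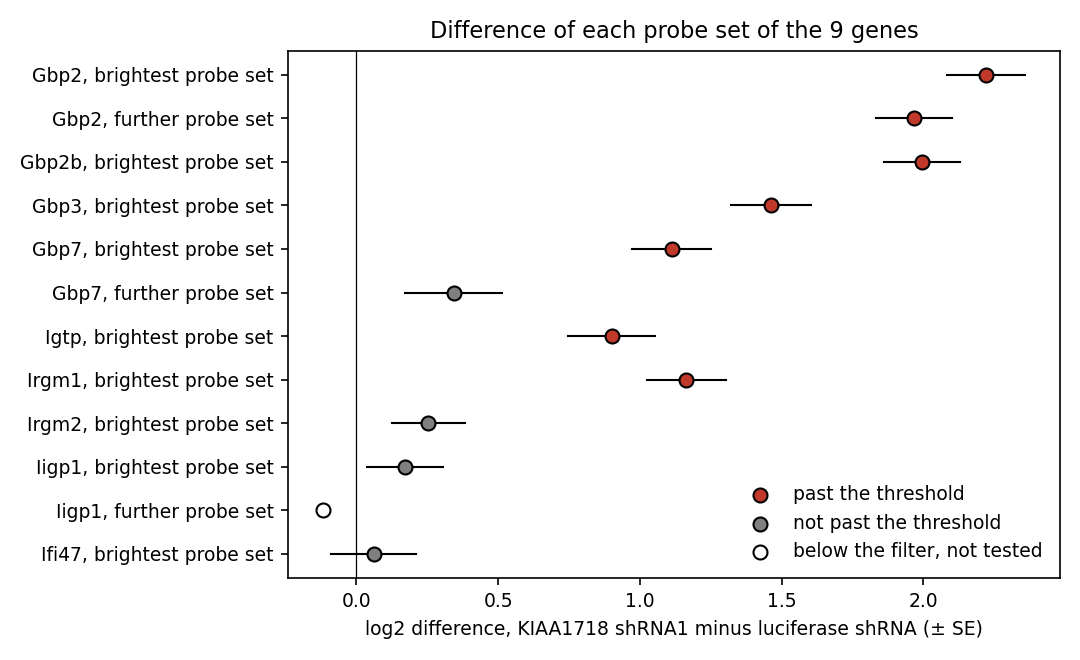
Log2 difference, KIAA1718 shRNA1 minus luciferase shRNA, of every member probe set with its SE. The values run from 2.22 for Gbp2 to 0.06 for Ifi47 on the brightest probe sets, and the dimmer Iigp1 probe set lies at -0.12.

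Over all tested probe sets, arrays with the same replicate number had weakly correlated deviations from their group means (0.13 to 0.20). Differences within numbered pairs were therefore also taken. Gbp2 differed by 1.91, 2.48 and 2.27 on the log2 scale in pairs 1 to 3, and Irgm1 by 0.73, 1.34 and 1.41. Igtp differed by 0.75, 0.63 and 1.32. Ifi47 differed by 0.15, -0.11 and 0.14, and was the only member with a pair below 0. Within the KIAA1718 shRNA1 arm, replicate 1 had the lowest normalised value for 7 of 9 members and replicate 3 the highest for 6 of 9. The luciferase arm did not share this order, with replicate 1 lowest for 2 of 9 and replicate 3 highest for 2 of 9. Gbp2b and Gbp2 lay closest among the guanylate-binding proteins, with a mean absolute distance of 0.15 log2 units over the 6 arrays. This distance takes in the size of the difference between the arms. Gbp7 and Irgm1 lay 0.08 apart, and Irgm2 and Iigp1 0.07 apart.

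Across settings the members' counts are again a description, since the choice of members bears on them. Igtp was past the threshold in 11 of 16 alternative settings. It did not pass without KIAA1718 shRNA1 replicate 3 (log2 difference 0.80), without luciferase replicate 3 (0.77), with no filter or with the fibroblast covariate, and it was not tested when 60% of probe sets were left out. Gbp2, Gbp2b, Gbp3, Gbp7 and Irgm1 passed in 16 of 16, and Irgm2, Iigp1 and Ifi47 in 0 of 16.

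**Figure D4:**
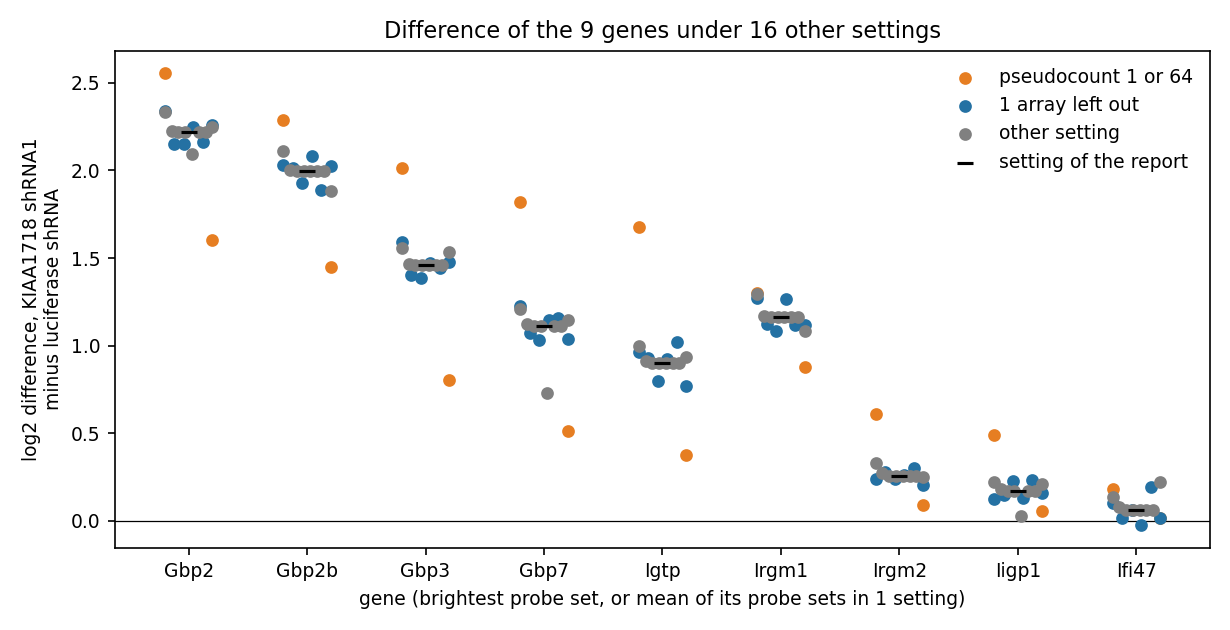
Log2 difference of each member under every setting, KIAA1718 shRNA1 minus luciferase shRNA, with other pseudocounts in orange, 1 array left out in blue, other alternatives in grey and the reported value as a black bar. Gbp2 ranges from 1.6 to 2.55 and Igtp from 0.38 to 1.68, and only Ifi47 falls below 0, to -0.02.

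Genes outside the family were ranked by how close their levels, minus the luciferase mean, lay to those of the members. The measure was the mean absolute distance over the 6 arrays, in log2 units. The 5 nearest to Gbp2 were Snhg14 (0.18), Igfbp3 (0.23), Krt19 (0.26), Psmb8 (0.44) and Slc39a8 (0.45). The 5 nearest to the median of the 9 members were Irf1 (0.04), Epha7 (0.09), Sema3e (0.10), Fam171a2 (0.11) and Uty (0.11). The distance describes 6 arrays only. It takes in the size of the difference between the arms, the value on which the members were chosen. Snhg14 and Igfbp3 had log2 differences of 2.05 and 1.82, and Irf1 1.05. The ranking therefore says nothing on joint variation with the members.

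Relatives outside the 9 gave few measurable values. Of 9 relatives with a probe set of their own, 3 were tested and 0 passed (limma), with 0 at an unadjusted p under 0.05. The immunity-related GTPase Gm12185 had a log2 difference of 0.05 (adjusted p = 0.921). The atlastins, which fuse membranes of the endoplasmic reticulum, had -0.19 (Atl1, adjusted p = 0.458) and 0.01 (Atl3, adjusted p = 0.982). Gbp6, Gbp8, Irgc1, Gm4951 and the antiviral dynamin-like GTPases Mx1 and Mx2 were below the filter. Gbp6, the highest of these 6 in difference, had 4.85, 7.42 and 6.41 in KIAA1718 shRNA1 cells, against 2.24, 3.89 and 0.625 in luciferase shRNA cells.

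A probe set that cannot separate Tgtp1 from Tgtp2, effector immunity-related GTPases, had 29.1, 65.8 and 46.1 in KIAA1718 shRNA1 cells, against 15.4, 14.6 and 17.4 in luciferase shRNA cells. The groups did not overlap, and the log2 difference was 0.85 ± 0.18 (SE; adjusted p = 0.0299). It passed in 9 of the 15 alternative settings that could be run for it (adjusted p 0.00735 to 0.128), and did not pass with no filter, with the fibroblast covariate, or when replicate 2 or 3 of either arm was left out. The probe set shared by the very large GTPases Gvin1 and Gm4070 had a log2 difference of -0.40 ± 0.13 (SE; adjusted p = 0.104).

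The interferon pathway was followed from ligand to target. The ligand Ifng had 0.192, 4.44 and 2.25 in KIAA1718 shRNA1 cells, against 0.364, 0.419 and 3.81 in luciferase shRNA cells, and was below the filter. Only 2 ligands were tested, 0 passed (limma; 0 at an unadjusted p under 0.05), and the smallest p was that of Il18, a cytokine that induces interferon gamma (log2 difference 0.28, adjusted p = 0.388). Of 11 receptors, kinases and STAT proteins tested, 0 passed (limma; 2 at an unadjusted p under 0.05). Their median log2 difference was 0.02, and the interferon receptor chain Ifnar1 had the smallest p (0.43 ± 0.12, SE; adjusted p = 0.0729). Of 10 inhibitors of the signal, 0 passed (limma; 3 at an unadjusted p under 0.05), and Socs3, which blocks JAK kinases, had -0.31 (adjusted p = 0.0530). Nothing is read from the counts at an unadjusted p, here or below. The share over all probe sets was not counted and was above 5%.

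Among 6 interferon regulatory factors and transactivators tested, 1 rose and 5 did not pass. Irf1, a transcription factor that binds ISRE letters, had 236, 317 and 330 in KIAA1718 shRNA1 cells, against 116, 112 and 133 in luciferase shRNA cells. The groups did not overlap, and the log2 difference was 1.05 ± 0.12 (SE; adjusted p = 0.0012), past the threshold in 16 of 16 alternative settings.

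Of 37 other interferon-induced genes tested, 9 rose and 0 fell, with a median log2 difference of 0.21. Psmb8, a catalytic subunit of the immunoproteasome, had 35.8, 72.1 and 67.8 in KIAA1718 shRNA1 cells, against 9.76, 7.66 and 14.2 in luciferase shRNA cells. Its log2 difference was 1.38 ± 0.17 (SE; adjusted p = 0.00197), and that of Parp9, an ADP-ribosyltransferase family member, was 0.99 ± 0.13 (SE; adjusted p = 0.00204). Psmb10, another immunoproteasome subunit, rose by 0.91 (adjusted p = 0.0164) and Ifi35 by 0.79 (adjusted p = 0.0122). Irf1, Psmb8 and Parp9 passed in 16 of 16 alternative settings. Psmb10 passed in 10 and was lost with no filter, with the fibroblast covariate and without replicate 2 or 3 of either arm (adjusted p 0.00395 to 0.135). Ifi35 passed in 12 and was lost with no filter, with the fibroblast covariate and without replicate 3 of either arm (adjusted p 0.00445 to 0.0743). The other 5, named after their values were seen, were Cxcl10, Ifitm1, Bst2, Oasl2 and Ifitm3. All 5 lost their call with the fibroblast covariate, and Cxcl10, Bst2 and Oasl2 also with no filter. Leaving out replicate 2 or 3 of the KIAA1718 shRNA1 arm or replicate 2 of the luciferase arm ended the calls of Cxcl10, Bst2 and Oasl2. Leaving out luciferase replicate 3 ended those of Bst2 and Oasl2, and leaving out KIAA1718 shRNA1 replicate 1 ended that of Oasl2. In luciferase shRNA cells the mean deposited signals of Cxcl10 and Oasl2 were 6.46 and 5.28, near or below the filter's limit. In KIAA1718 shRNA1 cells they were 23.3 and 17.2. These 2 genes thus passed the filter through the arm where they were high, and their calls are only a description.

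Partners of the GTPases were looked at as well. Of 6 genes of isoprenyl transfer and CAAX processing, which attach and trim the lipid anchor, 1 rose. Fnta, the shared alpha subunit of farnesyl and geranylgeranyl transferases, had 0.27 ± 0.07 (SE; adjusted p = 0.0477), a call kept in 4 of 16 alternative settings and lost whichever array was left out (adjusted p 0.0252 to 0.273). Of 16 autophagy and vacuole genes tested, 1 rose and 2 fell. Trim21, a ubiquitin ligase and antibody receptor, rose by 0.79 (adjusted p = 0.00672), a call lost with the fibroblast covariate. Gabarapl2, an ATG8 family protein, fell by 0.48 (adjusted p = 0.02) and the galectin Lgals3, which binds sugars on broken vacuoles, fell by 0.62 (adjusted p = 0.0406), each with groups that did not overlap. The Gabarapl2 call was kept in 8 of 16 alternative settings and lost without KIAA1718 shRNA1 replicate 2 or 3 or luciferase replicate 1 or 3 (adjusted p 0.00689 to 0.265). The Lgals3 call was kept in 7 of 16 and lost without any 1 array other than luciferase replicate 1 (adjusted p 0.0196 to 0.271). Of 5 inflammasome and caspase genes tested, 0 passed (limma; 1 at an unadjusted p under 0.05), with the DNA sensor Aim2 at 0.58 (adjusted p = 0.0777).

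Over all pathway and partner lists, 12 of 93 genes tested rose and 2 fell, or 15.1% called, beside 4.84% of all genes. These lists were chosen with earlier results of these data known, so nothing is read from this share. The count of 14 genes called fell to 6 with no filter on dim probe sets and to 5 with the mean level of the fibroblast list as a covariate. It was 7 without KIAA1718 shRNA1 replicate 2, 6 without KIAA1718 shRNA1 replicate 3, 8 without luciferase replicate 2 and 7 without luciferase replicate 3.

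**Figure D5:**
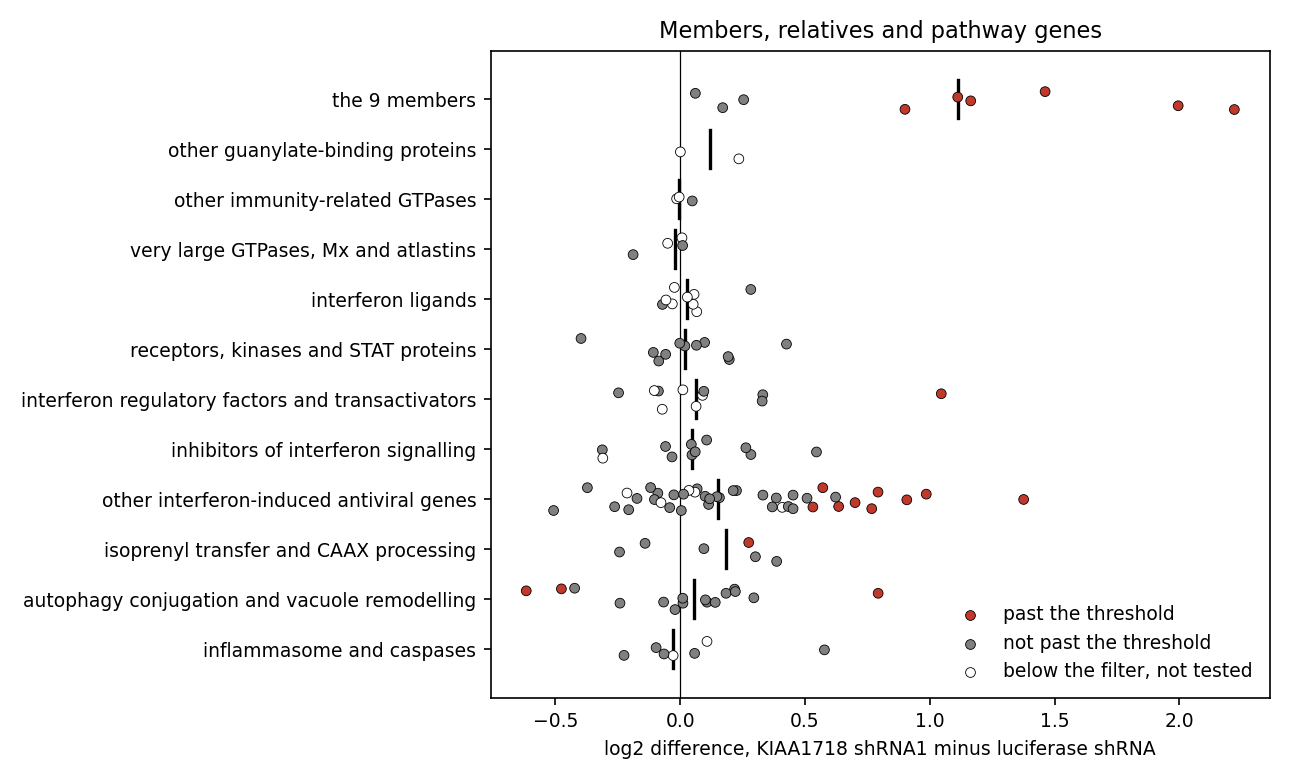
Log2 difference, KIAA1718 shRNA1 minus luciferase shRNA, of the members, their relatives and each pathway or partner list, 1 point per gene at its brightest probe set, with red points past the threshold, grey points not past it, open points below the filter and bars at each list's median. Irf1 (1.05) and Psmb8 (1.38) lie among the members' values. Receptors, kinases and STAT proteins run from -0.40 to 0.43 (median 0.02) and inhibitors from -0.31 to 0.55 (median 0.05). The highest inhibitor, named after its value was seen, is Socs1, which did not pass the threshold.

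The 5 nearest tested genes on either side of each cluster of members and relatives were followed along the chromosome. They were taken by gene order with no limit on distance, so "beside" does not mean close in bases. Of the 40 tested genes flanking the 4 clusters (10 each), 2 rose and 0 fell, a share near the 4.84% called among all genes. The median log2 difference of the 40 was 0.14, against -0.00031 for all genes tested. An unadjusted p under 0.05 (limma) was found for 15 of the 40. The share of all probe sets under that value was not counted. It was above 5%, since the marker Lum had an unadjusted p of 0.0478 at an adjusted p of 0.26 (limma). Nothing is therefore read from these unadjusted counts. Around the Gbp cluster on chromosome 3, 0 of 10 passed (limma; 3 at an unadjusted p under 0.05), with a median log2 difference of 0.03 and a range of -0.25 to 0.40. Tspan5 had the smallest p there (adjusted p = 0.114). Beside Igtp and Irgm2 the 10 genes had a median of 0.21 and a range of 0.01 to 0.33, so all were above 0. Of these, 4 had an unadjusted p under 0.05 (limma). Beside the Irgm1 to Ifi47 cluster the median was 0.14 and the range -0.35 to 0.62, with 5 at an unadjusted p under 0.05. On chromosome 11, Cyfip2 beside the Irgm1 to Ifi47 cluster had 0.62 ± 0.14 (SE; adjusted p = 0.0335), a call kept in 9 of 16 alternative settings and lost without KIAA1718 shRNA1 replicate 1 or 3 or luciferase replicate 2 or 3 (adjusted p 0.0183 to 0.227). Larp1 beside Igtp and Irgm2 had 0.33 ± 0.08 (SE; adjusted p = 0.0452), kept in 5 of 16 and lost whichever array was left out (adjusted p 0.0186 to 0.164). Beside Iigp1, 0 of 10 passed (limma; 3 at an unadjusted p under 0.05), and Synpo had the smallest p (-0.69, adjusted p = 0.113).

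The cells carried the markers of ES cells in both arms. Pou5f1, named after its values were seen, had 916 to 1151 in KIAA1718 shRNA1 cells and 1072 to 1131 in luciferase shRNA cells, and Dppa5a and Tdgf1 had the highest mean signals of 8 markers. Of these 8, 0 rose and 2 fell, Fgf4 by 0.72 (adjusted p = 0.00335) and Utf1 by 0.44 (adjusted p = 0.0243). The Fgf4 call was lost on unscaled values (log2 difference -0.58, adjusted p = 0.0927, the highest over its settings, the lowest being 0.00252). The Utf1 call, named after its values were seen, was lost in 10 of 16 alternative settings, including without any 1 array other than KIAA1718 shRNA1 replicate 1. Other cell types were checked because they can carry these GTPases. Of 24 fibroblast markers, led by Vim and Acta2, 1 fell (Pdgfra, by 0.71, adjusted p = 0.0266), 0 were above 0, and their summed normalised signal was 9226 to 11560 in KIAA1718 shRNA1 cells and 9468 to 15800 in luciferase shRNA cells. The Pdgfra call was lost in 9 of 15 alternative settings, including without any 1 array other than KIAA1718 shRNA1 replicate 1. With the fibroblast list as a covariate, 5 of 9 members passed, beside 141 of all 12734 genes tested (616 without it). The members were chosen on this comparison, so nothing is read from their count. Of 6 tested macrophage and leukocyte markers, 1 fell (Laptm5, by 0.91, adjusted p = 0.0167), and Coro1a had 0.17 ± 0.13 (SE). The sum over all 12 on the array was 228 to 331 in KIAA1718 shRNA1 cells and 349 to 398 in luciferase shRNA cells. Laptm5 alone had 77.0 to 122 in KIAA1718 shRNA1 cells and 163 to 217 in luciferase shRNA cells, while 6 of the 12 were above 0 and their median log2 difference was 0.004. The Laptm5 call was lost without luciferase replicate 2 or 3, with no filter and with the fibroblast covariate. The leukocyte marker Ptprc, named after its values were seen, was below the filter, at 3.30 to 5.56 in KIAA1718 shRNA1 cells and 0.349 to 5.53 in luciferase shRNA cells. Of 8 tested endothelial markers, 1 rose (Tek, by 0.77, adjusted p = 0.00961, lost without luciferase replicate 3, with no filter and with the fibroblast covariate), while Eng had -0.26 ± 0.16 and Esam 0.04 ± 0.14 (SE). The list's sum was 224 to 286 in KIAA1718 shRNA1 cells and 190 to 212 in luciferase shRNA cells. Of the 10 endothelial markers on the array 8 were above 0. The 8 tested had a median log2 difference of 0.27, with 3 at an unadjusted p under 0.05 (limma). The part of the leukocyte and endothelial lists in the members' differences was not tested.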

How the data were processed

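The deposited values were one intensity per probe set and array, on a linear scale; per the submitters' processing notes the authors used GCOS, with scaling settings not given in the sources used here. After removing 64 control probe sets, 45037 probe sets were quantile-normalised over 6 arrays, 16 was added and log2 taken. Probe sets in the dimmest 40% (mean normalised signal below 6.65) were dropped, which kept 27022 for a two-sided limma fit (lmFit, eBayes with an intensity trend; limma 3.58.1, R 4.3.3) adjusted by Benjamini-Hochberg and called at 0.05. A gene was its brightest probe set with 1 symbol; 34945 probe sets had 1 symbol, 932 several and 9160 none. The procedure was tested on simulated data.

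Of 12734 genes tested, 616 passed, 339 higher and 277 lower. On unscaled values the split was 298 higher and 69 lower, with the median of all genes shifted by 0.11. Median signals were 11.1 to 13.3 on KIAA1718 shRNA1 arrays and 9.58 to 12.9 on luciferase arrays. The Gapdh 3′ to 5′ signal ratio was 0.842 to 0.931 on KIAA1718 shRNA1 arrays and 0.874 to 0.902 on luciferase arrays, and array pairs correlated at 0.976 to 0.989. The small number of arrays limits precision.

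Replicate numbers come from the sample titles. Arrays of the same number had weakly correlated deviations from their group mean (0.20, 0.13 and 0.13), each above 0.1, while different numbers gave -0.15 to 0.02. Deviations within an arm sum to 0, so these correlations are not independent of one another. The numbers were taken as a possible pairing of the arrays. With the replicate number as a block 999 genes passed, and 6 members, as without it.

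The members and gene lists were chosen with earlier results of these data known. Genes named were all members and relatives, Kdm7a, up to 4 genes past the threshold with the largest difference per list or the 1 with the smallest p, and likewise flanking genes, the 5 nearest profiles, and the 2 brightest markers and the 1 with the smallest p per cell type. Alternatives changed the normalisation, pseudocount, filter, choice of probe set, moderation, block, a fibroblast covariate and the arrays included. Protein features were not analysed here.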

Additional observations from a re-analysis of the deposited data

How the results depend on the processing

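The count of all genes past the threshold (616) was 367 on unscaled values, 197 with no filter, 952 with the mean of all probe sets, 388 without the intensity trend, 999 with the replicate block, 141 with the fibroblast covariate, and 161 to 527 with 1 array left out. The count over the pathway and partner lists (14) was 6 with no filter, 5 with the fibroblast covariate, 16 with the replicate block and 6 to 12 with 1 array left out. The flanking count (2) was 1 on unscaled values, 1 with trimmed-mean scaling, 0 with no filter, 4 with the mean of all probe sets, 1 without the trend, 0 with the fibroblast covariate and 0 to 2 with 1 array left out. The median of the 9 members (1.11) was 1.68 with a pseudocount of 1, 0.51 with 64 and 0.90 with the mean of all probe sets. The members' count was 5 or 6 with 1 array left out. Dim members, near the filter's lower limit, are the least certain: only 5 members were tested when 60% of probe sets were left out. The cause of these changes was not tested. The replicate block changed no other call of a member.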
